A study of Mus musculus with 12 samples.

Results

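Oviducts of 4 CD1 females given a small dose of lipopolysaccharide (LPS) were set against those of 4 that received none, to ask which inflammatory mRNAs of the oviduct differed 24 h later and how alike the mice were. LPS is a component of the outer membrane of Gram-negative bacteria, here from Escherichia coli serotype 055:B5. The low-dose group received 2 µg and the control group 0 µg, each in phosphate-buffered saline into the peritoneal cavity on the day of estrus. A high-dose group of 4 mice received 10 µg, and its values are given for reference. It shares the fit, so its mice enter the estimate of spread and the filter behind the low-dose results. The 8 control and low-dose mice, of 12 mice in all, were chosen by their labels, and all 185 endogenous probes of an nCounter inflammation panel were described, 179 inflammation genes and 6 reference genes. Of the 179 genes 165 were far enough above the negative control probes to be tested. CD1 is an outbred stock, all mice were 6 to 8 weeks old with estrous cycles followed by vaginal smears, and RNA came from whole oviducts, a mixture of epithelium, muscle, vessels and leukocytes. In such tissue, fewer cells of a type and less RNA per cell cannot be told apart. Of the defining markers listed for oviduct epithelium, endothelium and B cells 0 were on the panel, so the labelled tissue was not checked here.

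LPS is bound by Cd14 and passed to the receptor Tlr4 with its partner Ly96 on macrophages, endothelium and many epithelia. One branch of signalling runs through Myd88 to NF-kB and turns on cytokine and chemokine genes. Another leads to type I interferon and to interferon-induced genes. Chemokines then draw neutrophils, monocytes and lymphocytes into the tissue, and complement components are made by the liver and also locally by macrophages, fibroblasts and epithelium.

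Counts were scaled by the geometric mean of 6 reference genes (Tubb5, Pgk1, Hprt1, Gusb, Gapdh, Cltc), and "scaled count" below means a count divided by that lane scale. Endogenous counts per lane were 98258 to 126058 in control mice against 129391 to 164383 with 2 µg, so these totals did not overlap (exact two-sided permutation test, p = 0.0286, the smallest that 4 against 4 mice allow, and 0.143 adjusted over 5 lane measures). Divided by the reference scale, the totals were 119927 ± 11720 and 130682 ± 14829 (SD, n = 4 each), which did overlap (exact permutation p = 0.257). The lane scale was highest in low-dose mouse 3 (1.25) and control mouse 1 (1.19), against 0.773 to 1.14 in the other control and low-dose lanes. By the spiked positive control probes the scales of these lanes were 1.13 and 0.917. After scaling, control mouse 1 lay below the other 3 controls in 96 of 165 genes. The part of the lane scale in the results below was not tested beyond the alternative scalings. Means of the 6 reference genes differed between low dose and control by -0.09 to 0.06 on the log2 scale. Lanes are separate mice per the labels, so p-values measure the spread between mice.

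At the low dose Il8rb, Cfb, Ccl8 and Ccl5 rose, and 0 genes fell. That is 4 of 165 genes tested, or 2.42% higher and 0% lower, by edgeR's quasi-likelihood test with Benjamini-Hochberg adjustment at a threshold of 0.05. At an unadjusted p below 0.05 there were 21 higher (12.7%) and 2 lower (1.21%). The 4 genes past the threshold encode a receptor of neutrophils, a complement protease and a pair of CC chemokines, with fitted fold changes from 4.67 to 18.5. At the high dose 37 genes were called higher (22.4%).

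Il8rb, whose current symbol is Cxcr2, is the main receptor through which neutrophils follow CXC chemokines. Its scaled counts were 2.53, 5.18, 5.11 and 4.99 in control mice 1 to 4, and 19.0, 19.3, 33.5 and 15.9 in low-dose mice 1 to 4. Every low-dose mouse lay above every control, and all 4 control lanes lay below the limit of the negative control probes (mean plus 2 SD). The rise was therefore at least 3.57-fold over those limits. Il8rb also entered the test only through lanes of LPS-treated mice. The fitted log2 fold change was 2.30 ± 0.35 (SE, adjusted p = 0.00565), which rests on raw control counts of 3 to 5. In the raw counts low-dose mouse 3 stood highest too, at 42 against 16 to 22 in the other low-dose mice. At the high dose the log2 fold change was 3.39 ± 0.34, and the high dose lay above the low by 1.09 ± 0.28 (adjusted p = 0.0433).

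Cfb encodes complement factor B, the protease component of the alternative pathway C3 convertase and an acute-phase gene. Its scaled counts were 46.4, 116, 53.2 and 109.7 in controls and 672, 1538, 174 and 338 in low-dose mice 1 to 4. The groups did not overlap, yet the low-dose mice themselves spanned 8.86-fold. The log2 fold change was 3.07 ± 0.61 (SE, adjusted p = 0.0223), against 4.71 ± 0.66 at the high dose. The difference between the doses, 1.65 ± 0.57, had an adjusted p of 0.103.

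Ccl8 encodes a chemokine for monocytes and other leukocytes (MCP-2). Control mice had scaled counts of 165, 47.9, 49.1 and 56.9, and low-dose mice 350.3, 587, 312 and 253. Here the groups did not overlap and the low-dose mice were fairly even, within 2.32-fold, while control mouse 1 stood well above the other controls. The log2 fold change was 2.22 ± 0.45 (SE, adjusted p = 0.0223), beside 3.12 ± 0.46 at the high dose. The 250 bases upstream of the starts of Ccl8 and Il8rb, which are among the genes that rose, are given after these results, and none for Cfb and Ccl5.

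Ccl5 encodes RANTES, a chemokine for T cells, monocytes and eosinophils. Its scaled counts were 19.4, 40.1, 43.0 and 28.9 in controls, and 714, 1484, 40.6 and 190.2 in low-dose mice 1 to 4. Low-dose mouse 3 lay within the control range, and the low-dose group spanned 36.5-fold. This gene had the largest log2 fold change of the 4, 4.21 ± 0.89 (SE, adjusted p = 0.0236), and the value at the high dose was 4.73 ± 0.91. Low-dose mice 1 and 2 lay within or above the range of the high-dose mice, whose scaled counts were 604, 1002, 1210.2 and 655.

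The count of 4 depended on single mice. It was 1 when low-dose mouse 1 or any of control mice 2, 3 and 4 was dropped, without control mouse 1 or low-dose mouse 2 it was 2, without low-dose mouse 4 it was 6, and without low-dose mouse 3 it was 14. Il8rb stayed called whichever single mouse of the 12 was dropped. The count also depended on the high-dose mice in the fit. With only the control and low-dose mice fitted, 1 gene was called, again Il8rb. Without control mice 2 and 4, the lanes with the fewest fields of view counted, 0 genes passed and 21 were higher at an unadjusted p below 0.05. Their loss left 2 control mice in that fit. Over the alternatives as a whole Ccl5 lost its call in 11 of 26, limma-voom, the series' own test and the replicate block among them. Cfb lost it in 9 of 26, Ccl8 in 8 of 26 and Il8rb in 1 of 25.

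**Figure D1:**
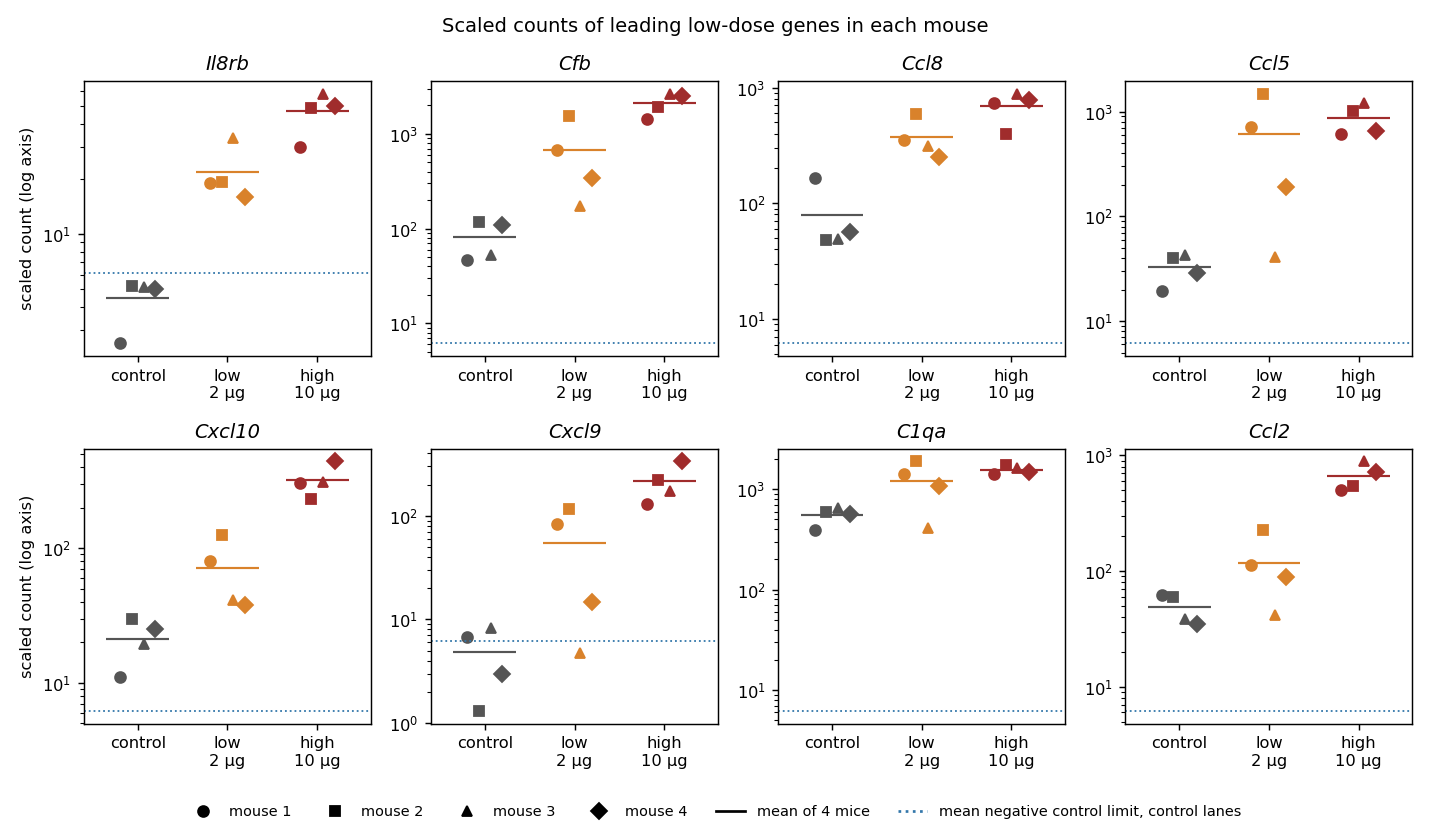
Scaled counts (log axis) of 8 genes in every mouse of the control, low-dose (2 µg) and high-dose (10 µg) groups, with the mean of 4 mice as a line and the mean negative control limit of the control lanes dotted. Il8rb, Cfb, Ccl8 and Cxcl10 do not overlap between control and low dose, while low-dose mouse 3 (triangle) sits with the controls for Ccl5, Cxcl9, C1qa and Ccl2.

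Upstream sequences from RefSeq (GRCm38.p6), each 250 bases long and on the plus strand for Ccl8 and Il8rb and the minus strand for Cxcl10, are given 5′ to 3′ and end at the base before the transcript start. Cxcl10 was added after its values were seen, as the gene with the next smallest p. Capitals mark matches on either strand to the NF-kB consensus, the interferon-stimulated response element (ISRE, GAAA and GAAA with any 2 bases between them), the interferon-gamma activated site (GAS, TTCNNNGAA), AP-1 (TGANTCA) or a TATA box (TATAAA).
Ccl8, chr11:82114935-82115184: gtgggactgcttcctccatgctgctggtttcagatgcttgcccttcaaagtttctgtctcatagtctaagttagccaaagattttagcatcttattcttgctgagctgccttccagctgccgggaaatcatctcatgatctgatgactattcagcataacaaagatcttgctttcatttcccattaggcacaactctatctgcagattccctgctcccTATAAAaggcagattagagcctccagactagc
Il8rb (Cxcr2), chr1:74153744-74153993: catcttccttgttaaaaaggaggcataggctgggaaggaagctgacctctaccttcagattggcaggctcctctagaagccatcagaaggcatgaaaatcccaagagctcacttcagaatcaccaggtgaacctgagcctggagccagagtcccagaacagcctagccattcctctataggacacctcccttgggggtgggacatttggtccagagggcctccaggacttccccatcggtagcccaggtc
Cxcl10, chr5:92348890-92349139: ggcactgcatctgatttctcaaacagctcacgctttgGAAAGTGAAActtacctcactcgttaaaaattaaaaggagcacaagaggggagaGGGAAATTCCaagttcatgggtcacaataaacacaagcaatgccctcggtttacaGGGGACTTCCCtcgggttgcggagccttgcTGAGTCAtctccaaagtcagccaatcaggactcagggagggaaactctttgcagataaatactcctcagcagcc
The Ccl8 window held a TATA box 32 to 27 bases upstream and no match to the other marked motifs, and the Il8rb window held no match to any of them. The Cxcl10 window held 3 NF-kB matches, at 159 to 150 and, overlapping each other, at 104 to 95 and 103 to 94 bases upstream. It also held an ISRE at 213 to 204 and an AP-1 match at 74 to 68 bases upstream. Of 32851 such windows in the RefSeq table, 7.25% held an NF-kB match, 2.98% an ISRE, 7.02% a GAS, 6.75% an AP-1 match and 12.4% a TATA box. A looser C/EBP motif (TTNNGNAA), left in lower case, was in 36.8% of windows and at 2 places in that of Cxcl10, 236 to 229 and 217 to 210 bases upstream. These matches describe letters only, and their part in the counts was not tested.

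Of the interferon-induced list, 3 of 19 genes were on the panel and 0 of 3 passed, with a median log2 fold change of 1.74 against 0.08 over all 165 genes. Cxcl10, a chemokine for T cells and NK cells, had scaled counts of 10.97, 29.8, 19.4 and 24.9 in controls and 79.65, 124, 41.4 and 37.7 in low-dose mice. Every low-dose mouse lay above every control, but the log2 fold change of 1.74 ± 0.42 (SE) missed the threshold, at adjusted p = 0.0537. It passed under 8 of 26 alternatives, and over all 26 its adjusted p ran from 0.00136 to 0.237. Cxcl9, a related chemokine induced by interferon gamma, stood at 6.75, 1.29, 8.18 and 2.99 in controls and at 83.3, 115.5, 4.78 and 14.9 in low-dose mice. Low-dose mouse 3 again lay within the controls, and 2 of 4 control lanes were not above the negative controls (log2 fold change 3.43 ± 0.91, SE, adjusted p = 0.0828). The high dose lay above the low for Cxcl10 by 2.18 ± 0.41 (adjusted p = 0.0079) and for Cxcl9 by 1.97 ± 0.75 (0.144). Of the interferons themselves Ifna1 was tested and did not pass, and Ifnb1 and Ifng did not reach the limit for testing.

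Groups that did not overlap were few. Of the 165 genes 6 (3.64%) had every low-dose mouse above every control, namely Il8rb, Cfb, Ccl8, Cxcl10, Il18rap and Il8ra, and 1 (0.606%), Ccl22, had every low-dose mouse below. Il8rb and Il8ra were above the negative controls in 0 of 4 control lanes, so they entered the 165 only through lanes of LPS-treated mice. A filter on all 12 lanes left out Il8rb, Il8ra and Il18rap. Il18rap, a subunit of the interleukin 18 receptor on T and NK cells, had scaled counts of 4.22 to 9.06 in control mice against 9.63 to 14.3 with 2 µg. Its log2 fold change was 0.96 ± 0.29 (SE, adjusted p = 0.161), on raw counts of 5 to 7 and 11 to 18. Il8ra, now Cxcr1, a second neutrophil chemokine receptor, lay below the negative controls in all 4 control lanes and above them in 2 of 4 low-dose lanes, so no fold is given. Ccl22, a chemokine for regulatory and type 2 T cells, was at 11.8, 10.4, 12.3 and 8.98 in controls and at 8.15, 5.25, 6.38 and 6.94 at the low dose. That difference of -0.70 ± 0.22 on the log2 scale did not pass either (adjusted p = 0.291).

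The other monocyte chemokines did not pass at 2 µg. In that list 1 of 3 members (Ccl8) was called higher, beside 4 of 165 (2.42%) over all genes tested. The list median log2 fold change was 1.25. Ccl2, the main ligand of Ccr2 on monocytes, had scaled counts of 62.4, 59.5, 38.9 and 34.9 in controls and 112, 225, 41.4 and 88.2 in low-dose mice. Of the low-dose mice 3 lay above all controls and mouse 3 among them, giving 1.25 ± 0.43 (SE, adjusted p = 0.184). At the high dose Ccl2 stood 2.50 ± 0.44 above the low dose (adjusted p = 0.00739). Ccl7, a close relative, had raw counts of 4 to 19 without LPS and 6 to 40 with 2 µg, which overlapped (0.97 ± 0.56, adjusted p = 0.487). Mice given 10 µg stood 3.08 ± 0.52 above those given 2 µg (adjusted p = 0.00739).

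Neutrophil chemokines, the ligands of Il8rb, gave 0 of 4 calls, with a median log2 fold change of 0.68. Cxcl1 was at 5.06, 14.2, 10.2 and 9.97 in controls and at 13.6, 21.9, 6.38 and 17.8 in low-dose mice, which overlapped (0.61 ± 0.46, SE, adjusted p = 0.576). Cxcl2 had 0 of 4 control lanes above the negative controls, with raw counts of 1 to 3 against 2 to 9, and did not pass (adjusted p = 0.344). Of 10 neutrophil marker symbols listed, among them the current symbols Cxcr1 and Cxcr2 beside the old ones, 3 were on the panel, Il8rb, Il8ra and Itgb2. Of these 1 of 3 (Il8rb) was called higher, beside 4 of 165 (2.42%) over all genes tested. Il8rb and Il8ra entered the test only through lanes of LPS-treated mice. Summed over the 3, their scaled counts ran from 77.6 to 125 in control mice against 125.1 to 282 with 2 µg. Most of each sum was Itgb2, which by itself overlapped between the groups, so the sums do not measure neutrophils alone. Itgb2, an integrin chain shared by most leukocytes, was at 72.5 to 117 in controls and at 205, 258, 88.5 and 166 in low-dose mice 1 to 4 (0.85 ± 0.31, adjusted p = 0.205). Low-dose mouse 3, highest for Il8rb, was thus lowest for Itgb2. Other neutrophil markers such as S100a8 and Mpo were not on the panel, and how far more neutrophils account for the Il8rb counts was not tested.

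Of the inflammatory CC chemokines Ccl3, Ccl4 and Ccl5, 1 of 3 was called higher, beside 4 of 165 (2.42%) over all genes tested. The list median was 0.98. Ccl3 was at 7.59 to 9.21 in controls and at 19.9, 23.6, 8.77 and 16.8 in low-dose mice 1 to 4, and Ccl4 at 5.06 to 11.6 and 7.24 to 19.8. In Ccl3 3 low-dose mice lay above all controls, again all but mouse 3, though neither gene passed (adjusted p = 0.248 and 0.344). The lymphoid and type 2 chemokines had a median of -0.18 with 0 of 6 called. Their highest member was Ccl19, which guides Ccr7-bearing dendritic cells and T cells (0.51 ± 0.31, adjusted p = 0.497).

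Among the 8 chemokine receptors tested, Il8rb was the 1 called, beside 4 of 165 (2.42%) over all genes tested, and the list median was 0.57. Ccr7 raw counts were 1 to 5 without LPS and 10, 18, 2 and 12 in low-dose mice 1 to 4 (1.72 ± 0.61, log2, SE, adjusted p = 0.193). It was above the negative controls in 0 of 4 control lanes, so it entered the test only through lanes of LPS-treated mice. The fitted value for Ccr7 rests on control counts at background. Ccr4 was the lowest member (-0.30 ± 0.59), at 0 of 4 control lanes above the negative controls. The monocyte receptor Ccr2 overlapped widely, at 114 to 290.2 in control mice against 93.2 to 398 with 2 µg.

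Of 6 classical complement genes 0 passed at the low dose, with a list median of 0.80. At an unadjusted edgeR p below 0.05, 4 of 6 were higher, beside 21 of 165 (12.7%) over all genes tested. The 6 genes were measured in the same mice and are not independent. C1qa, a chain of the recognition protein C1q made mainly by macrophages, had scaled counts of 391, 589, 652 and 573 in controls and 1432, 1893, 414 and 1075 in low-dose mice. Low-dose mice 1, 2 and 4 lay above all controls and mouse 3 among them, so the log2 fold change of 1.13 ± 0.35 (SE) had an adjusted p of 0.167. C1qb followed the same order of mice, at 2036, 2670, 714 and 1653 against 708 to 1078 in controls (0.95 ± 0.31, adjusted p = 0.167). The differences between the high and the low dose were 0.37 ± 0.35 for C1qa and 0.44 ± 0.30 for C1qb, with adjusted p-values of 0.564 and 0.413. C1r, a protease that C1q activates, was at 763 to 1197 in controls and 1954, 2743, 1031 and 1401 in low-dose mice (0.75 ± 0.26, adjusted p = 0.184), and the high dose lay 1.32 ± 0.26 above the low (adjusted p = 0.00999). C2, the lowest member of the list, stood at 0.47 ± 0.29. Whether the C1q genes and the proteases differ in dose response was not tested. Of the macrophage and monocyte markers 4 of 10 were on the panel, C1qa, C1qb, C3ar1 and Ccr2, and 0 of 4 passed. Their summed scaled counts were 1470 to 2077 in control mice against 1357 to 5114 with 2 µg. C1qa and C1qb themselves made up most of these sums, which are thus no separate measure of macrophages. The part of macrophage number in the C1q counts was not tested.

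In the alternative pathway list 1 of 4 genes (Cfb) was called, beside 4 of 165 (2.42%) over all genes tested. C3, the central complement protein, had scaled counts of 5849, 9200, 11332 and 16824 in controls and 21682, 26411, 11122 and 13374 in low-dose mice. The groups overlapped, with 2 low-dose mice above all controls (0.75 ± 0.33, SE, adjusted p = 0.344). A share of endogenous counts does not use the reference scale, but the total it divides by includes C3 itself. By this measure C3 took 8.86% ± 3.32 in controls and 13.6% ± 4.04 at the low dose (SD, n = 4). An exact two-sided permutation test gave p = 0.143. C3ar1, the receptor of the C3a fragment on myeloid cells, was at 81.0 to 186 in controls and 279, 351, 135 and 268 in low-dose mice (0.88 ± 0.29, adjusted p = 0.167). Cfd, the protease that activates factor B and a gene best known from adipocytes, ran from 3.88 to 2039 in control mice against 3.98 to 417 with 2 µg. Of the lectin and terminal complement genes 0 of 6 tested passed, with a median of -0.06, from C7 (-0.42 ± 0.44) to C8b (0.30 ± 0.33).

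Early mediators of the LPS response gave no call at this dose and time. Tnf was at 3.37, 11.6, 6.14 and 3.99 in controls and at 16.3, 2.62, 0.797 and 19.8 in low-dose mice, so the low-dose mice lay on either side of the controls (0.67 ± 0.76, SE, adjusted p = 0.747). The mean negative control limit of the control lanes was 6.14 as a scaled count. Low-dose mice 2 and 3 and control mice 1 and 4 lay below it and control mouse 3 at it. A fall of Tnf in low-dose mice 2 and 3 therefore cannot be read from these values. Il6 was at 41.6 in low-dose mouse 4 and at 3.19 to 5.43 in the other 3, while control mouse 2 had 33.7 (0.19 ± 0.99, adjusted p = 0.95). Il1b, the inflammasome-processed cytokine, was at 10.1 to 34.9 in control mice against 25.5 to 46.4 with 2 µg (0.48 ± 0.35, adjusted p = 0.566). Nos2, the inducible nitric oxide synthase, stood at 0.34 ± 0.33 (adjusted p = 0.714). Csf2, the granulocyte-macrophage growth factor, was the lowest of its list at -0.55 ± 0.57, and Il6ra, the interleukin 6 receptor, the highest at 0.30 ± 0.14 (adjusted p = 0.344). In the interleukin 1 and 18 list Il18rap was highest and the receptor Il1r1 lowest (-0.08 ± 0.27). Keap1, the sensor of oxidants, stood at 0.00 ± 0.09. The TNF family list had 0 of 9 calls, a median of 0.39, and Lta as its lowest member (-0.50 ± 0.35).

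The receptors and adaptors for LPS itself gave no call. Of 10 Toll-like receptor genes and adaptors 0 passed, with a median of 0.12. Tlr4 was at 440 to 734 in control mice against 588 to 645 with 2 µg, a log2 difference of 0.08 ± 0.14 (SE, adjusted p = 0.832). Ly96 was at 188 to 236 in control mice against 190 to 272 with 2 µg (0.16 ± 0.12, adjusted p = 0.586). The highest and lowest members were Tlr7, a receptor for single-stranded RNA (0.57 ± 0.33), and Tlr5, the flagellin receptor (-0.20 ± 0.24).

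Genes of T and NK cells gave 0 calls of 9 tested. Cd40lg, the activated T cell ligand of Cd40, was among the 12 smallest p-values (1.59 ± 0.52, adjusted p = 0.167) but its raw counts were 1 to 4 without LPS, all below the negative controls, and 5 to 10 with 2 µg. The lowest was Il13, a type 2 cytokine, with 1 of 4 control lanes above the negative controls (-0.47 ± 0.35). The highest member of the antigen presentation list was Cd40, at 19.9 to 22.0 in controls and 32.6, 41.1, 13.5 and 31.7 in low-dose mice 1 to 4 (0.47 ± 0.27, adjusted p = 0.487). Low-dose mouse 3 was below all controls there. On the panel were 6 of 8 T and NK cell markers and 0 of 6 passed, with summed scaled counts of 49.8 to 84.1 in control mice against 73.3 to 130.4 with 2 µg.

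Signalling, transcription factor and structural genes gave 0 calls. The list medians were -0.02 for 19 MAP kinase genes, -0.02 for 18 transcription factors, -0.03 for 11 small G proteins and actin regulators, and 0.01 for 4 TGF-beta genes. In the MAP kinase list the extremes were Map3k5 (0.20 ± 0.18) and Hras1 (-0.19 ± 0.24), for the transcription factors Mef2b (0.44 ± 0.32) and Elk1 (-0.23 ± 0.21), for TGF-beta Tgfb3 (0.15 ± 0.17) and Tgfb2 (-0.05 ± 0.14), and for the small G proteins Ppp1r12b (0.10 ± 0.19) and Cdc42 (-0.14 ± 0.07, adjusted p = 0.427). The 5 genes of highest control mean were C3, Cdc42, the chaperone Hspb1 (-0.25 ± 0.20), the G protein subunit Gnas (-0.01 ± 0.07) and the GTPase Rhoa (-0.11 ± 0.07), and none of these passed. Shc1, an adaptor of receptor tyrosine kinases, was 1 of the 2 genes lower at an unadjusted p below 0.05, at 1625 to 1790.0 in control mice against 1412 to 1685 with 2 µg (-0.17 ± 0.07, adjusted p = 0.291). It was named after its value was seen. These values depend on the scale, since the median of all genes moved from 0.08 to -0.04 by total count and 0.22 by positive controls.

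**Figure D2:**
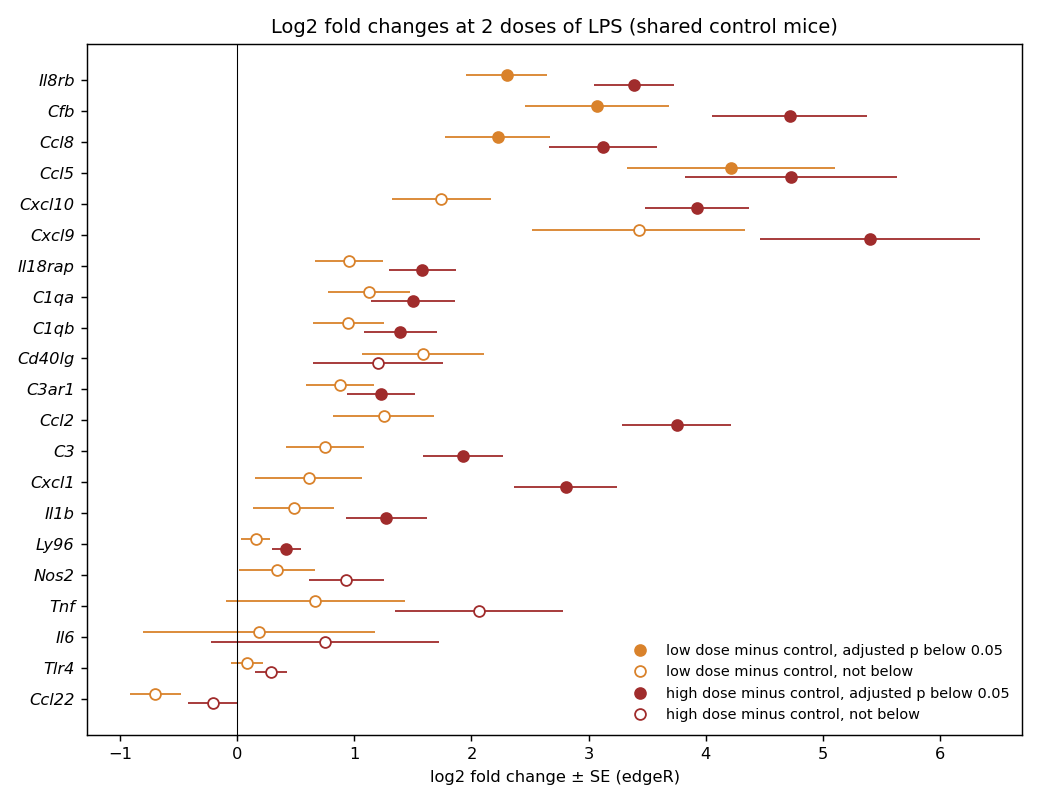
Log2 fold change ± SE by edgeR of 21 genes for 2 µg and for 10 µg, against the same 4 control mice. Filled points have an adjusted p below 0.05. For 2 µg these are Il8rb, Cfb, Ccl8 and Ccl5.

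The doses also differed from each other. Mice given 10 µg exceeded those given 2 µg in 11 of 165 genes (6.67%) and fell below them in 0 (0%). Of the 4 genes called at the low dose, Il8rb was higher at the high dose (adjusted p = 0.0433), while Ccl5 (0.52 ± 0.76, adjusted p = 0.746) and Ccl8 (0.90 ± 0.43, 0.217) did not pass. Csf1, the macrophage growth factor, which was named after its values were seen, lay at 316 to 403 in control mice against 305 to 437 with 2 µg. Its low-dose value of -0.01 ± 0.16 (log2, SE) stood beside 0.91 ± 0.16 at the high dose, and the difference between doses was 0.91 ± 0.16 (adjusted p = 0.00739).

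The 4 low-dose mice differed in how many genes stood high. Of 165 genes, 20 lay more than 2-fold above the control mean in low-dose mouse 1, 33 in mouse 2, 5 in mouse 3 and 12 in mouse 4. Each control mouse set against the other 3 gave 7, 11, 4 and 2 such genes, and the high-dose mice gave 27 to 46. Low-dose mice 1 and 2 thus stood well above the highest control, mouse 4 above it by 1 gene, and mouse 3 lay within the control range. Among the 92 genes whose mean scaled count in controls reached 100, the counts were 4, 9, 0 and 0 in low-dose mice 1 to 4 and 1, 2, 1 and 1 in control mice 1 to 4, so there mouse 4 was no higher than the controls. Mouse 3 had the lowest scaled count of the low-dose mice in 80 genes and the highest in 13, and its lane scale was also the largest of the 8. That scale was 1.25 against 1.01 to 1.14 in the other low-dose lanes, and its part in these counts was not tested. The median log2 ratio to controls over 6 classical complement genes was 1.05, 1.27, -0.11 and 0.59 in low-dose mice 1 to 4. Over the 3 monocyte chemokines it was 1.26, 2.22, -0.19 and 0.88. Over 19 MAP kinase genes it stayed between -0.12 and 0.07.

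**Figure D3:**
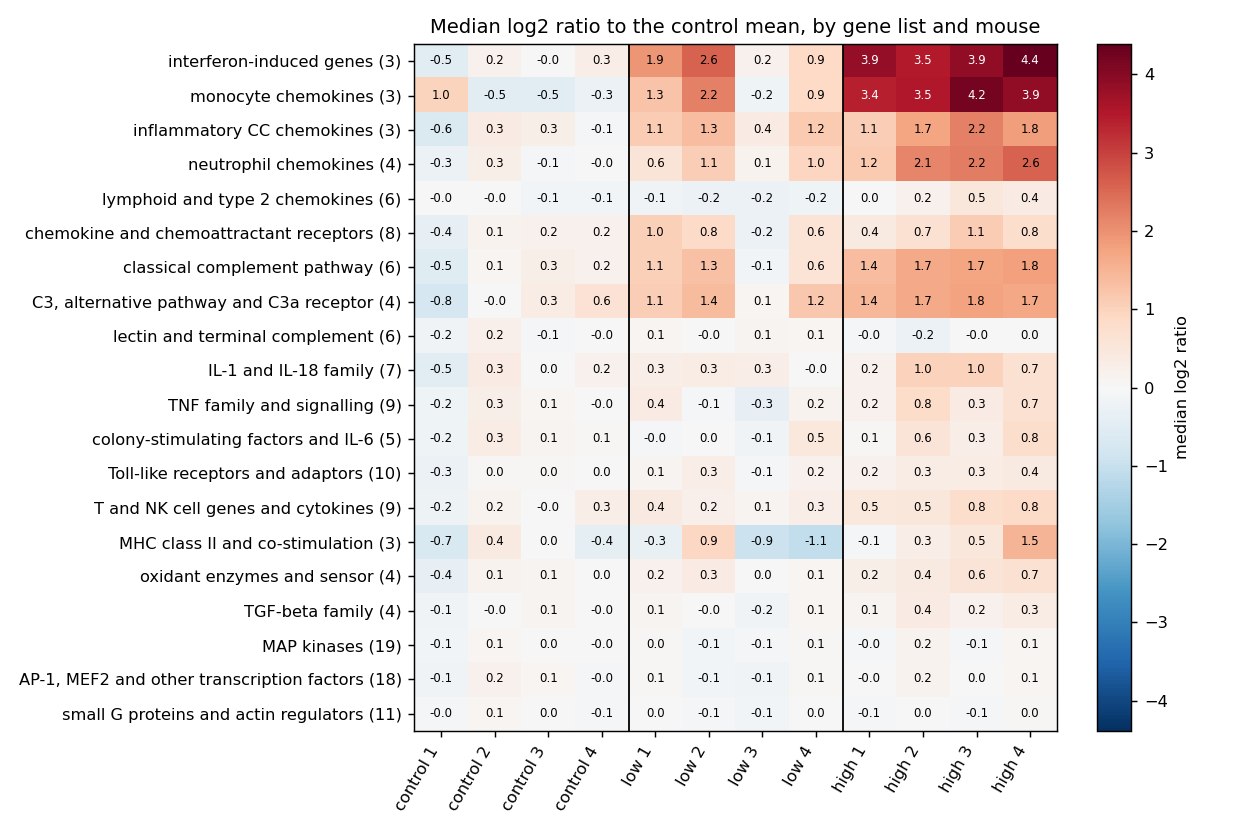
Median log2 ratio of scaled counts to the control mean (colour and number) for each gene list (rows, with the number of tested genes) in each mouse (columns). The classical complement row reads 1.05, 1.27, -0.11 and 0.59 in low-dose mice 1 to 4, while the lymphoid and type 2 chemokine row lies between -0.25 and -0.14 and the lectin and terminal complement row between -0.02 and 0.11.

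Over the panel as a whole the median spread between mice was smaller at the low dose than in controls. The median SD of log2(scaled count + 1) over 165 genes was 0.32 without LPS, 0.28 with 2 µg and 0.23 with 10 µg, where counting error alone would give medians of 0.12, 0.11 and 0.10. The SD was larger at the low dose than in controls in 89 of 165 genes (53.9%). Over the 23 genes of the inflammatory chemokine, complement and interferon-induced lists, joined after the values were seen, it was larger in 18 (78.3%), with medians of 0.53 in controls and 0.63 at the low dose. Over 48 genes of the signalling, transcription factor and small G protein lists it was larger in 22 (45.8%). These shares are descriptions, since genes of 1 mouse are not independent. The count of 89 ran from 78 to 105 with 1 control mouse left out and from 73 to 84 with 1 low-dose mouse left out. Control mouse 1 lay below the other 3 controls in 96 of 165 genes, and its part in the control spread was not tested.

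The largest low-dose SDs among genes with a mean scaled count of at least 20 were those of Cfd, H2-Ea, H2-Eb1, Ccl5, Masp2 and Cxcl9. H2-Ea, an alpha chain of MHC class II that several mouse haplotypes do not express, was at 37.1, 1334, 5.11 and 43.9 in controls and 48.0, 1074, 31.1 and 23.8 in low-dose mice. In each group mouse 2 alone was above 1000, with a wide spread in both groups. H2-Eb1, the matching beta chain, was at 639, 1369, 1872 and 736 in controls and 48.9, 648, 27.9 and 497 in low-dose mice. Low-dose mice 1 and 3 stood far below the rest of these 8, and the log2 difference of -1.92 ± 1.08 (SE) did not pass (adjusted p = 0.486). Masp2, a protease of the lectin pathway, was at 2.39 in low-dose mouse 3, below its negative control limit, and at 57.8 to 88.7 in the other 3. Controls had 34.9 to 124.9, so this gene also separated 1 mouse rather than the groups. For Ccl5 and Cxcl9, unlike H2-Ea and Cfd, the SD was larger at the low dose than in controls, at 2.27 against 0.51 and at 2.04 against 0.92.

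**Figure D4:**
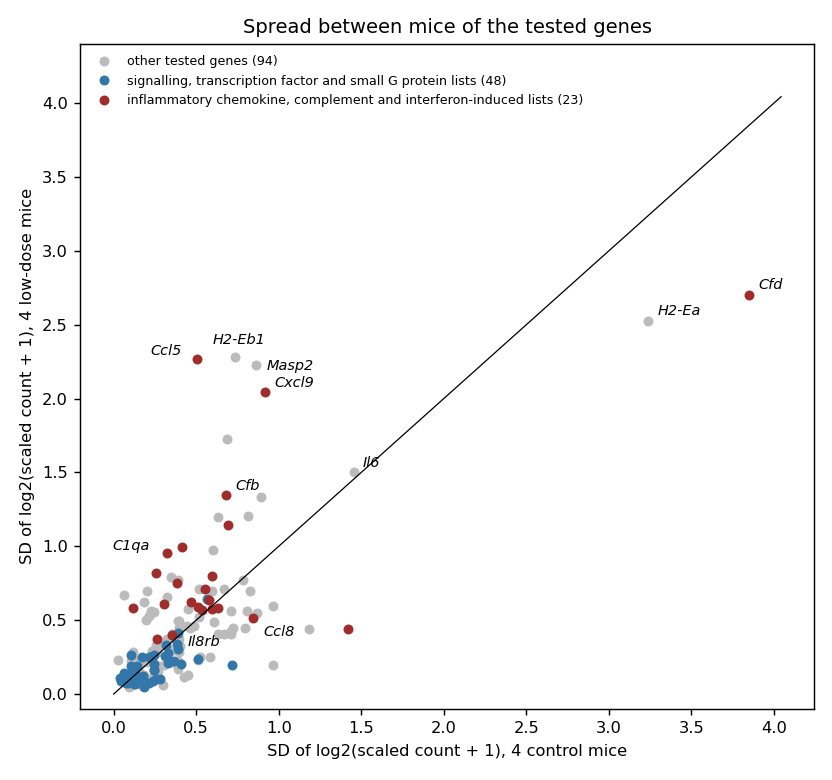
SD between the 4 control mice (x) and between the 4 low-dose mice (y) of log2(scaled count + 1) for 165 genes, with the line of equal SD. Points above the line vary more at the low dose, as 18 of the 23 inflammatory chemokine, complement and interferon-induced genes do.

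**Figure D5:**
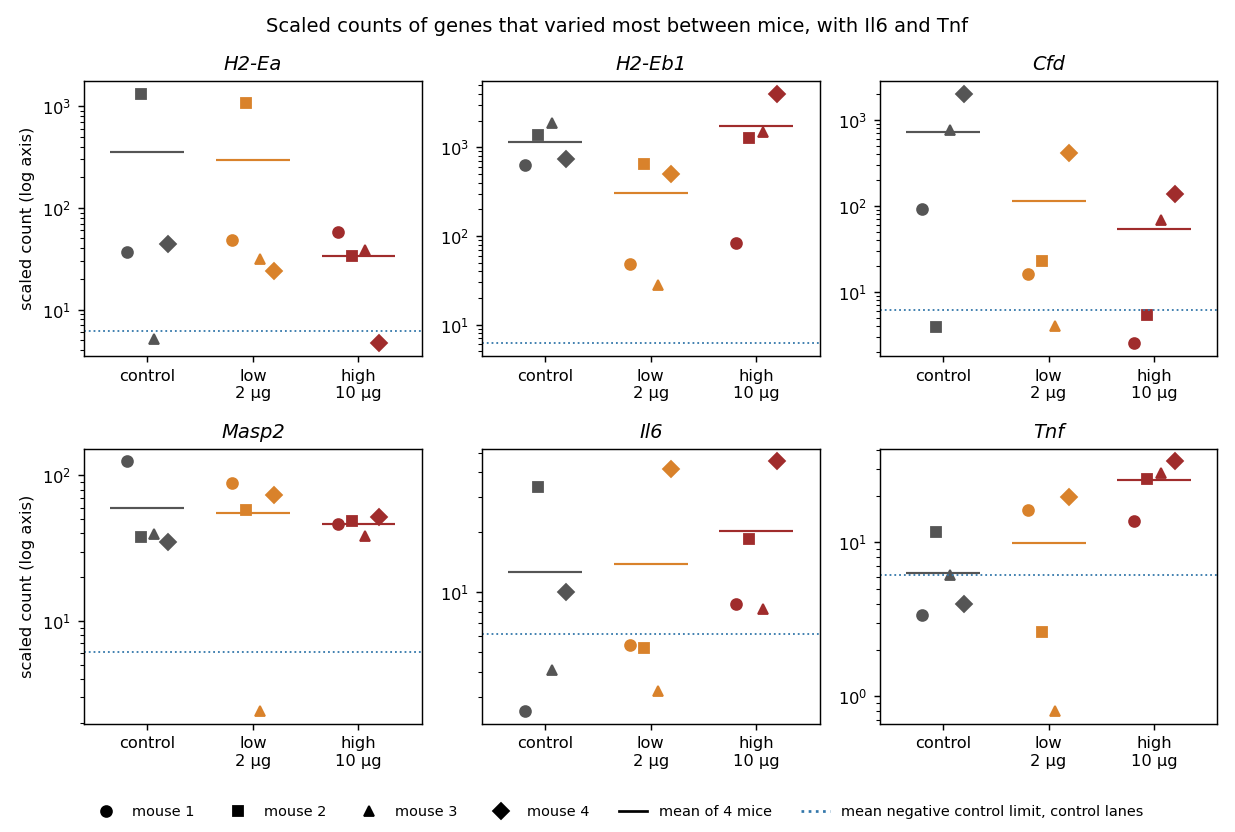
Scaled counts (log axis) of 6 genes in every mouse, with the mean of 4 mice as a line and the mean negative control limit of the control lanes dotted. H2-Ea is above 1000 in control mouse 2 and low-dose mouse 2 alone, and Tnf in low-dose mice lies on either side of the control values.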

How the data were processed

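Per the labels, total RNA of 12 oviduct samples was counted on the nCounter GX Mouse Inflammation panel, which counts fluorescent barcodes of probe pairs without amplification. The authors deposited raw counts, 1 lane per mouse, with no normalization. Since a binding density with decimals stands above the probes, the columns the authors deposited were handled as estimated counts, raw and not normalized. All 2388 probe values are whole, so rounding changed nothing. What the instrument software did is not given in the sources used here. RNA integrity numbers were above 9.7 per the labels' protocols.

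Groups came from sample titles. Of 179 genes beside the 6 reference genes, 165 were tested, those above the mean plus 2 SD of 8 negative control probes in at least 4 of 12 lanes. Counts of all 12 lanes were fitted by the quasi-likelihood method of edgeR 4.0.16 under R 4.3.3 with the reference scale as offset, and p-values adjusted by Benjamini-Hochberg over the 165 genes. The series' own test (one-way analysis of variance, then the least significant difference, both unadjusted at 0.05) was run as an alternative, as were limma-voom (limma 3.58.1), DESeq2 1.42.0, other scalings, filters and left-out mice. The SE is the log2 fold change over the root of F. The procedure was tested on simulated data. Samples with the same number do not pair by the labels.

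Named are the genes past the threshold, the 12 of smallest p, those whose groups do not overlap (at most 15 in a direction), the 6 of largest low-dose SD with a mean of at least 20, the 5 of highest control mean, the extremes of lists with at least 3 tested members, and a fixed set with Tlr4, Ly96, Tnf, Il1b, Il6, Nos2, Cxcl1, Ccl2, Cxcl10, C3 and the reference genes. Members, lists and tests were chosen with earlier results of these data known. A few genes meeting this rule are not reported. Of 185 probe accessions 179 matched RefSeq (GRCm38.p6), used for names and upstream sequences.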

Additional observations from a re-analysis of the deposited data

Results flagged for a closer look

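A single mouse stood apart from its 3 group mates in 14 of the 130 groups of 4 examined, of which 9 were in controls. For independent groups about 1 in 20, here 6.5, would do so by chance. Some of these genes were named for their large SD and the groups share the same lanes, so that rate cannot serve as a test. For Il8rb, control mouse 1 had a scaled count of 2.53 beside 4.99 to 5.18 in the rest of its group. The raw counts were 3 against 4 to 5, all below the negative control limits. Control mouse 1 also had 165 for Ccl8 (rest 47.9 to 56.9), 124.9 for Masp2 (others 34.9 to 39.9) and 7414 for Gapdh (others 8632 to 8690). Control mouse 2 had 1334 for H2-Ea (others 5.11 to 43.9) and 4355 for Rhoa (others 3850.2 to 3895), and its endogenous total was 98258 (others 121424 to 126058). Il6ra was at 492 in control mouse 3 (others 421 to 430), and the binding density of control mouse 4 was 0.31 (others 0.24 to 0.25).

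At the low dose, mouse 4 had 417 for Cfd (others 3.98 to 22.8) and 41.6 for Il6 (others 3.19 to 5.43). Mouse 2 had 1074 for H2-Ea (others 23.8 to 48.0), 46.4 for Il1b (others 25.5 to 27.2) and 736 for Hprt1 (others 841 to 844). The causes were not tested.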

How the results depend on the processing

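Of 1411 log2 fold changes of 55 named genes over 26 alternatives, 1360 kept their side of the threshold, 29 lost a call (Ccl5 in 11, Cfb in 9, Ccl8 in 8, Il8rb in 1), 22 gained one and 0 called values changed sign. The 4 genes higher at the low dose became 7 with DESeq2, 2 with limma-voom, 1 with only control and low dose fitted and 0 without control mice 2 and 4 together. With 1 mouse left out the count ran from 1 to 14. The 0 genes lower stayed at 0 under the other alternatives but became 3 by the series' own test (unadjusted). The 11 genes higher with 10 than with 2 µg became 7 by positive controls, 7 with negative controls subtracted, 7 without control mice 2 and 4, 20 with DESeq2 and 38 by the series' own test, and 6 to 14 with 1 mouse left out. Total count scaling gave 36 lower between the doses. The 6 genes with all low-dose mice above the controls became 13 by positive controls, 3 with the filter on all 12 lanes, 20 without control mice 2 and 4, and 7 to 26 with 1 mouse left out. The 1 gene with all below became 2 by TMM, 5 by DESeq2 size factors, 3 by total count, 2 by 4 reference genes, 5 without control mice 2 and 4, and 1 to 6 with 1 mouse left out. With fewer mice fewer can overlap; the cause of the other changes was not tested.

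The 89 genes with a larger SD at the low dose ran from 73 to 105 with 1 mouse left out. With the replicate number as a block 3 genes were called, Ccl8, Cfb and Il8rb, and the log2 fold change of Ccl5 at the low dose was 3.84 (adjusted p = 0.121). Deviations of same-numbered control and low-dose mice correlated at -0.13 to 0.28, over 0.1 in 3 of 4 pairs. Pairs with different numbers ran from -0.37 to 0.30, so these few correlations cannot decide whether the numbers pair the mice. Low counts limit Il8ra, Cxcl2, Cd40lg, Ccr7 and Tnf, which lie near the negative controls. They also limit Il8rb, above the negative controls in 0 of 4 control lanes, and Il18rap, Ccl7, Cxcl9 and Il6, above them in 2 of 4. Ccl22 at the low dose lay near them too.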

Other observations

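Il6 and Myd88, chosen after their values were seen, stood high in the same mice of each group. Myd88, the adaptor of most Toll-like receptors, had scaled counts of 313, 874, 350 and 416 in control mice 1 to 4 and of 379, 366, 298 and 911 in low-dose mice 1 to 4. The mice with the highest Myd88, control mouse 2 and low-dose mouse 4, were also those with Il6 at 33.7 and 41.6, where the other 6 had 2.53 to 9.97. Between the groups Myd88 differed by 0.00 ± 0.41 on the log2 scale (SE, adjusted p = 0.997).

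Ccl24, an eosinophil chemokine, was at 65.4 in low-dose mouse 3 and at 8.15 to 13.1 in the other low-dose mice, and at 14.3 to 50.5 in controls. The eosinophil receptor Ccr3 was at 12.8 in low-dose mouse 3 and highest, at 63.9, in low-dose mouse 2. These genes were also chosen after their values were seen, and neither differed between the groups past the threshold (adjusted p = 0.886 for Ccl24 and 0.692 for Ccr3).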
